A study of Mus musculus with 7 samples.

Results

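The 10 genes described here handle zinc in Paneth cells (PCs), the granulated secretory cells of the small intestinal crypts. They were taken by symbol and matched to Ensembl identifiers: the metallothioneins Mt1 and Mt2, the zinc exporters Slc30a1, Slc30a2, Slc30a4, Slc30a5 and Slc30a7 of the ZnT family, and the zinc importers Slc39a4, Slc39a7 and Slc39a14 of the ZIP family. All 10 were found among the 55414 identifiers of the count table. PCs of C57BL/6J mice, with no genetic change named in the labels, were sorted from the small intestine 15 h after the mice had received TNF, the inflammatory cytokine tumour necrosis factor (4 libraries), or phosphate-buffered saline (PBS, 3 libraries) by injection, each library from its own mouse, and total RNA was sequenced. The sources used here do not give the dose, the sex and age of the mice, the sort gate or the stretch of intestine taken.

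ZnT proteins move zinc out of the cytosol, either through the plasma membrane or into vesicles and the Golgi, and ZIP proteins move it into the cytosol from outside the cell or from organelles. Metallothioneins are small cysteine-rich proteins that bind zinc in the cytosol, and the transcription factor MTF-1, the product of Mtf1, senses free zinc and binds metal response elements (MREs) in their promoters and in that of Slc30a1. PCs are known for granules rich in zinc, and in the gut ZIP4 (Slc39a4) is the apical importer of dietary zinc.

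The libraries held 15511455 to 19193721 counts. Summed levels of 7 PC markers ran from 164263 to 264583 CPM (counts scaled to 1e6 per library, on TMM-scaled sizes) after PBS and from 158118 to 284030 CPM after TNF, and 1 of the 7 rose and 1 fell. Many markers of other epithelial cells fell after TNF, where 30.1% of all tested genes were lower and 29.5% higher (edgeR, adjusted p under 0.05). Of 7 tested enterocyte markers 6 fell, from a sum of 469 to 625 CPM down to 55.6 to 69.9 CPM, and all 6 tuft cell markers fell, from 1394 to 2305 CPM down to 264 to 674 CPM. Falls were also seen for 5 of 6 stem cell markers (3467 to 4785 CPM against 1971 to 2717 CPM) and 4 of 7 goblet cell markers (11176 to 20555 CPM against 9167 to 10486 CPM). Of 7 enteroendocrine markers 2 were called lower, a share near that of all genes, and their sums overlapped (28.8 to 96.2 CPM against 22.5 to 32.2 CPM). Leukocyte markers summed to 24.9 to 33.2 CPM after PBS and 22.2 to 29.9 CPM after TNF, with Cd3e at 0 and 1 of 5 tested markers higher and 1 lower. Stromal, endothelial and erythroid sums stayed under 0.4 CPM in every library, with Col1a2, Kdr, Hbb-bs and Hba-a1 at 0. Of the genes that mark position along the gut, 5 of 6 tested proximal genes fell (178 to 216 CPM against 33.5 to 45.7 CPM, Onecut1 at 0), and of 4 tested ileal genes 3 rose and 1 fell (27.6 to 45.3 CPM against 68.7 to 75.8 CPM). These 2 position lists had been chosen after the data were seen.

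After TNF, 5 of the 10 genes were higher (Mt1, Slc30a4, Slc30a7, Slc39a4 and Slc39a7) and 2 were lower (Slc30a5 and Slc39a14) by the quasi-likelihood test of edgeR at an adjusted p under 0.05. The largest difference was that of Slc39a4, 5.53-fold higher. The changes were not in one direction within a family: the ZnT genes held 2 rises and 1 fall among 5, and the ZIP genes 2 rises and 1 fall among 3. Across all 14329 tested genes 59.6% passed this test, 29.5% as higher and 30.1% as lower, so that 7 of 10 is a share near that of the whole transcriptome. The CPM ranges of the PBS and TNF libraries did not overlap for 6 of the 10 genes, and for 60.7% of all tested genes. The median log2 fold change of the 10 genes was 0.21, with a range from -1.36 to 2.47, and that of all tested genes was 0.00167. In bulk RNA, fewer cells of a type and less RNA per cell cannot be told apart, and this holds for each value below.

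**Figure D1:**
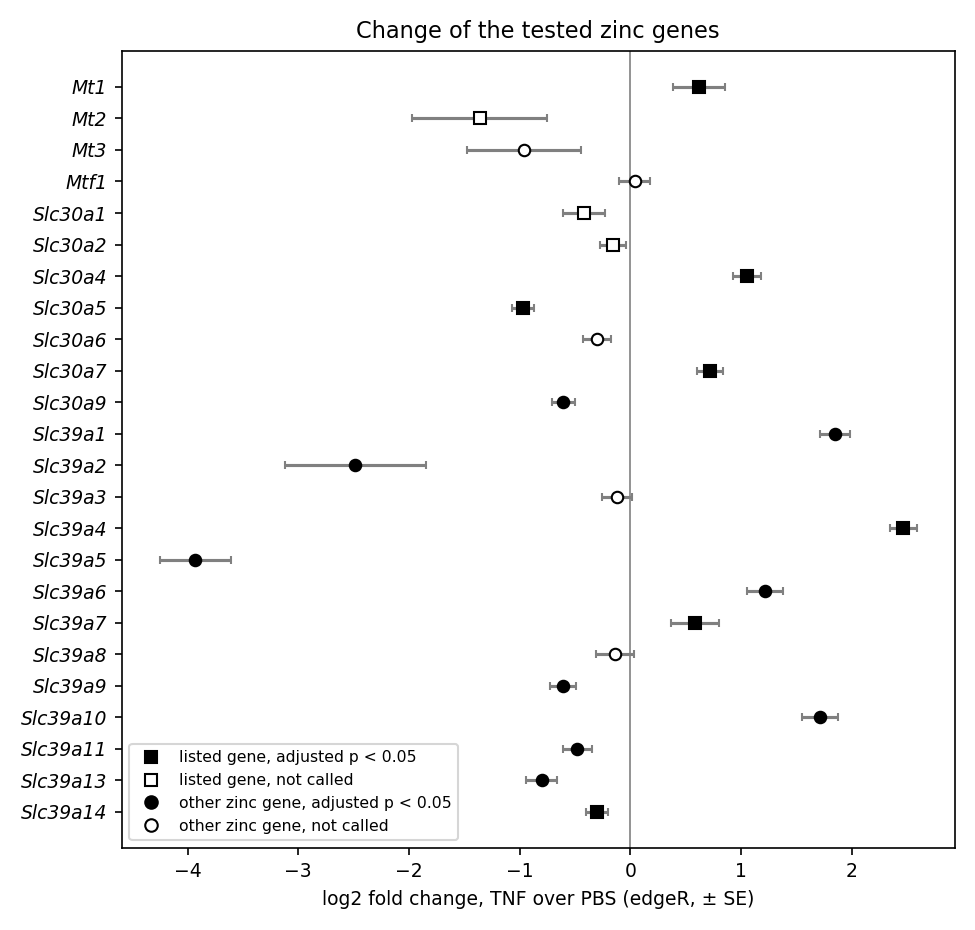
Log2 fold change (TNF against PBS) of the 10 zinc genes and the 14 other tested genes of zinc handling, as points with bars of ± 1 SE, derived from the edgeR F statistic (squares for the 10 genes, circles for the others, filled where the adjusted p was under 0.05). Slc39a4 at 2.47 lies furthest to the right and Slc39a5 at -3.93 furthest to the left.

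Mt1 and Mt2 lie side by side on chromosome 8 in a cluster with Mt4 and Mt3, and their promoters are shown first because they carry the elements through which zinc is known to act on these genes. RefSeq promoter windows (build GRCm38.p6, from 250 bases before to 50 bases after the start of the gene) were given for 8 of the 10 genes, all but Slc39a4 and Slc39a14. They were searched on both strands for the MRE core, spelled TGCACNC or TGCGCNC. The windows of Mt1 (chr8:94178839-94179138, + strand), Mt2 (chr8:94172368-94172667, + strand) and Slc30a1 (chr1:191906531-191906830, + strand), the classical targets of MTF-1, read 5′ to 3′ as follows, with the MRE cores in capitals:
Mt1: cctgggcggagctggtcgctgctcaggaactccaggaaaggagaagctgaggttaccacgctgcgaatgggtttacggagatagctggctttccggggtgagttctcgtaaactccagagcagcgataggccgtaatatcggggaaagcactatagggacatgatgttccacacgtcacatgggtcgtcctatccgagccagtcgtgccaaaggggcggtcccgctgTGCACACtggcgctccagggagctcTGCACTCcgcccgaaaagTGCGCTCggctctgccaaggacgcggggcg
Mt2: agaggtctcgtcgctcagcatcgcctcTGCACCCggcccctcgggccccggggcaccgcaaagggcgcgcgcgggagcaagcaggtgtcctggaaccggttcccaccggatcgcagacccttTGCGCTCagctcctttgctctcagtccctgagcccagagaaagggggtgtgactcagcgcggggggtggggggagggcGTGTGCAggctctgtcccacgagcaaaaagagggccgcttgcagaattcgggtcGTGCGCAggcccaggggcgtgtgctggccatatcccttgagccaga
Slc30a1: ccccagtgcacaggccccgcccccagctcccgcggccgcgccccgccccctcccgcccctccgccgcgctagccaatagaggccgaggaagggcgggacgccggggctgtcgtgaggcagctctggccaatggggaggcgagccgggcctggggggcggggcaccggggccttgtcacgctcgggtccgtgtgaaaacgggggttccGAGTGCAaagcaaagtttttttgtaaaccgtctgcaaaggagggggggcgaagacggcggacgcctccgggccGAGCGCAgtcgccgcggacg
The window of Mt2 held 4 MRE cores and that of Mt1 held 3. At least as many were found in 0.517% and in 1.97% of all 32851 windows of that length, respectively. Counted from the annotated start that places the window, the cores of Mt1 began at -23, 3 and 21, and those of Mt2 at -223, -128, -50 and 5. Bases outside the windows were not searched for MREs, and the start sites used in these cells were not measured. Slc30a1 held 2 cores at -43 and 31, a number reached by 7.11% of all windows. Among the other 5 genes, Slc30a4 held 3 cores, Slc30a2 held 2, Slc30a5 held 1, and Slc30a7 and Slc39a7 held 0, where 25.7% of all windows held at least 1. The STAT-binding GAS element, spelled TTCNNNGAA, was in none of the 8 windows and in 8.3% of all windows. These matches describe letters only and no binding was measured.

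Of the 2 metallothioneins, Mt1 passed the test and Mt2 did not. Mt1 (ENSMUSG00000031765, GRCm39 chr8:94905710-94906955) stood at 15.8, 19.5 and 8.17 CPM after PBS and at 18.3, 22, 24.7 and 24 CPM after TNF. PBS library 3 was the lowest of all, PBS library 2 was above TNF library 1, and the groups overlapped. The PBS mean of 14.5 ± 5.77 CPM (SD, n = 3) and the TNF mean of 22.3 ± 2.87 CPM (SD, n = 4) differed 1.54-fold or 0.62 ± 0.24 (SE) on the log2 scale (edgeR adjusted p = 0.04). Without PBS library 3 the log2 fold change was 0.33 and did not pass the test (edgeR adjusted p = 0.118), and the call was also lost without PBS library 1 or without TNF library 2, 3 or 4. Without PBS library 2 it was 0.90 (edgeR adjusted p = 0.00766).

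Mt2 (ENSMUSG00000031762, GRCm39 chr8:94898819-94900207) was near the lower limit of this depth. It had 37, 27 and 18 counts after PBS and 16, 2, 13 and 10 counts after TNF, or 2.29, 1.37 and 0.954 CPM against 0.895, 0.118, 0.696 and 0.654 CPM. Every TNF library was under every PBS library, and TNF library 2 held the fewest counts. The log2 fold change was -1.36 ± 0.61 (SE, 95% confidence interval -2.67 to -0.05), which did not pass the test (edgeR adjusted p = 0.0686). The interval, unlike this p, is not adjusted for the number of genes. Mt2 passed the test without TNF library 1 (-1.63, edgeR adjusted p = 0.0404). Without PBS library 1 the value was -0.97 (edgeR adjusted p = 0.288). On the opposite strand the long noncoding RNA Gm45774 covers 77.7% of the Mt2 transcript. Gm45774 itself had 1 count after PBS and 2 after TNF, and the part of this overlap in the Mt2 counts was not tested. Among protein-coding genes covered almost wholly on the opposite strand by another gene, 7 of 40 (17.5%) reached 700 counts over the 7 libraries, against 36% of genes that share no exon base, which bears also on Slc30a2 and Slc30a7 below.

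Set against each other, the ratio of Mt1 to Mt2 counts was 6.89, 14.2 and 8.56 after PBS and 20.4, 187, 35.5 and 36.7 after TNF. All 4 TNF libraries had the higher ratio. The value of 187 rests on 2 Mt2 counts and has a 95% interval of 51.4 to 1550 (exact binomial, counting error only). Summed over libraries the ratio was 9.66 after PBS and 37.3 after TNF. Together both genes made up very little of the RNA, 0.00168%, 0.00223% and 0.00111% of counts after PBS and 0.00208%, 0.00205%, 0.00247% and 0.00208% after TNF. PBS library 2 was above 3 of the 4 TNF libraries, so these shares overlapped. Mtf1, whose product binds the MREs, stood at 27.4, 30.5 and 27.9 CPM after PBS and at 35.5, 25.9, 24.4 and 31.9 CPM after TNF. Its log2 fold change was 0.04 ± 0.14 (SE, 95% confidence interval -0.27 to 0.34, edgeR adjusted p = 0.826), and its sign changed with scaling by total counts (-0.12).

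**Figure D2:**
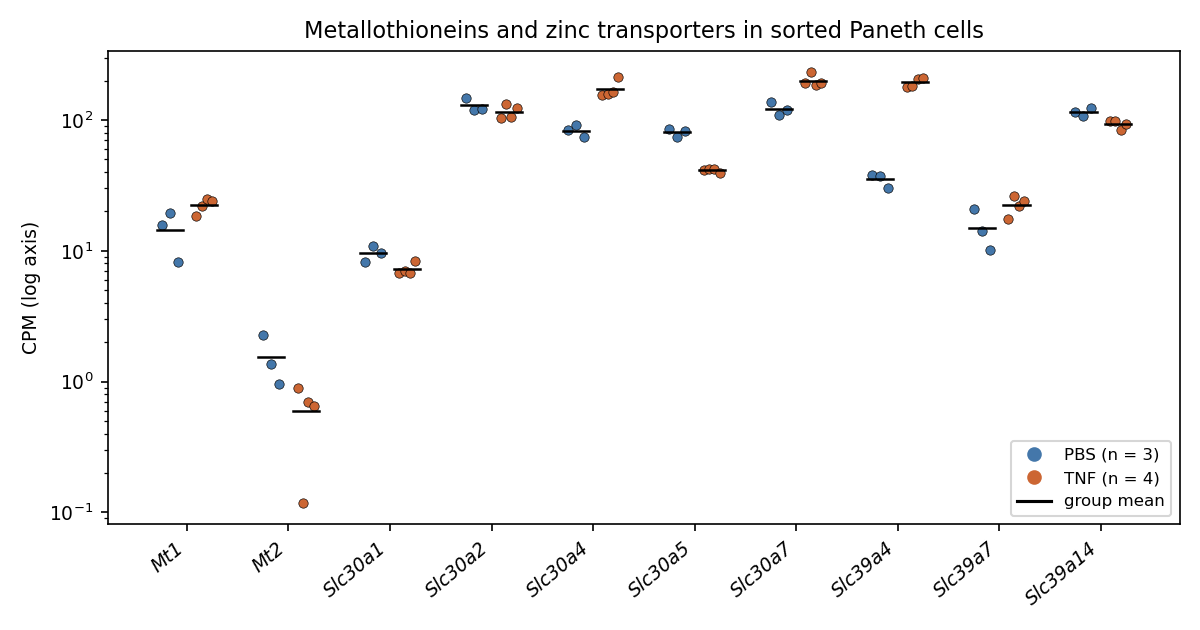
CPM (log axis) of each of the 10 zinc genes in every library, with each PBS and TNF library as a point and the group mean as a line. The TNF points of Slc39a4, Slc30a4 and Slc30a7 all lie above the PBS points, those of Slc30a5, Slc39a14 and Mt2 all lie below, and the groups of the other 4 genes overlap.

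The importers held the largest difference. Slc39a4 (ENSMUSG00000063354, GRCm39 chr15:76496580-76504172) encodes ZIP4, whose loss causes the zinc deficiency acrodermatitis enteropathica in humans. Its level was 37.8, 37.2 and 30.4 CPM after PBS and 180, 183, 205 and 210 CPM after TNF. The libraries of each group lay close together and the lowest TNF value was far above the highest PBS value. The log2 fold change was 2.47 ± 0.12 (SE, edgeR adjusted p = 1.68e-09), with a 95% confidence interval of 2.21 to 2.73. Of the 14329 tested genes 543 had a higher log2 fold change, so 96.2% lay under Slc39a4. Slc39a4 is a gene that absorptive enterocytes express, and the summed enterocyte markers were lower after TNF in all libraries. The part of enterocytes in the Slc39a4 counts of either group was not tested.

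Slc39a7 (ENSMUSG00000024327, GRCm39 chr17:34247243-34250656) encodes ZIP7, which releases zinc from the endoplasmic reticulum and Golgi into the cytosol. It stood at 20.7, 14.2 and 10.2 CPM after PBS and at 17.4, 26.2, 22.1 and 24.1 CPM after TNF. PBS library 1 was above TNF library 1, and the PBS libraries were spread widely. The log2 fold change was 0.58 ± 0.22 (SE, 1.5-fold, edgeR adjusted p = 0.0343). It was 0.36 without PBS library 3 (edgeR adjusted p = 0.135), and the call was also lost without PBS library 2 or without TNF library 2, 3 or 4. Without PBS library 1 it was higher, at 0.88 (edgeR adjusted p = 0.00284). Of the Slc39a7 transcript 86% is shared on the same strand with the noncoding Gm20427, which had 3 counts after PBS and 16 after TNF. Among protein-coding genes covered almost wholly on the same strand by another gene, 1 of 143 reached 700 counts over the 7 libraries, against the same 36%. The part of this overlap in the counts of Slc39a7 was not tested.

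Slc39a14 (ENSMUSG00000022094, GRCm39 chr14:70540678-70588914) encodes ZIP14, a plasma membrane importer of zinc, iron and manganese. It was at 115, 107 and 123 CPM after PBS and at 98.3, 98.4, 83.4 and 93.3 CPM after TNF, with every TNF library under every PBS library. The gap between the groups was small beside the level. Slc39a14 fell by 0.30 ± 0.10 (SE) on the log2 scale, or 1.23-fold (edgeR adjusted p = 0.0191). Without PBS library 3 the edgeR adjusted p was 0.0633, and without TNF library 3 it was 0.0546.

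Of the ZnT genes that fill vesicles and the Golgi, Slc30a4 and Slc30a7 rose and Slc30a5 fell. Slc30a4 (ENSMUSG00000005802, GRCm39 chr2:122523004-122544845) encodes ZnT4, a transporter of secretory and endosomal vesicles that loads zinc into milk. It stood at 83.3, 91.5 and 74.6 CPM after PBS and at 156, 157, 165 and 213 CPM after TNF. All TNF libraries were above all PBS libraries, and TNF library 4 stood above the other 3. Slc30a4 was 2.08-fold higher after TNF, 1.06 ± 0.13 (SE) on the log2 scale (edgeR adjusted p = 9.28e-06).

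Slc30a7 (ENSMUSG00000054414, GRCm39 chr3:115732621-115801060) encodes ZnT7, which carries zinc into the Golgi. Its values were 137, 109 and 120 CPM after PBS and 192, 232, 186 and 192 CPM after TNF. The groups were apart, with TNF library 2 the highest. The rise was 1.65-fold, 0.72 ± 0.12 (SE) on the log2 scale (edgeR adjusted p = 0.000118). Genes on the opposite strand cover 46.5% of its transcript. The 2 coding ones, Dph5 and Extl2, had log2 fold changes of 0.10 (edgeR adjusted p = 0.674) and -0.01 (edgeR adjusted p = 0.981).

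Slc30a5 (ENSMUSG00000021629, GRCm39 chr13:100936795-100970006) encodes ZnT5, which works as a heterodimer with ZnT6 in the early secretory pathway and supplies zinc to enzymes such as alkaline phosphatases. It stood at 85.7, 74.6 and 81.9 CPM after PBS and at 41.2, 42, 42.5 and 39.1 CPM after TNF. The TNF libraries lay within a few CPM of each other and well under all PBS libraries. Slc30a5 fell by 0.97 ± 0.10 (SE) on the log2 scale, or 1.96-fold (edgeR adjusted p = 1.52e-06). Slc30a6, which encodes the ZnT6 partner and was looked up after its values were seen, had a PBS mean of 26.7 ± 3.23 CPM (SD, n = 3) and a TNF mean of 21.7 ± 1.43 CPM (SD, n = 4). Its difference of -0.30 ± 0.13 (SE) on the log2 scale did not pass the test (edgeR adjusted p = 0.0562). Slc30a6 was called lower in 4 of the 14 alternatives. These were total counts (-0.46, edgeR adjusted p = 0.0154), the filter of 1 CPM (edgeR adjusted p = 0.0468), and leaving out PBS library 3 (edgeR adjusted p = 0.0485) or TNF library 4 (edgeR adjusted p = 0.0452). Without PBS library 1 its value was smaller, at -0.19 (edgeR adjusted p = 0.268).

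Slc30a2 (ENSMUSG00000028836, GRCm39 chr4:134070234-134081795) encodes ZnT2, the transporter that loads zinc into the granules of PCs. It did not pass the test. Its values were 147, 119 and 122 CPM after PBS and 104, 132, 106 and 123 CPM after TNF, and the groups overlapped. The log2 fold change was -0.15 ± 0.12 (SE, edgeR adjusted p = 0.275), and its 95% confidence interval of -0.41 to 0.10 leaves room for a modest fall or a small rise. Under scaling by total counts it was called lower, at -0.32 (edgeR adjusted p = 0.031), where the median of all genes was -0.163. Without PBS library 1 it was -0.05 (edgeR adjusted p = 0.761). The gene Extl1 covers 45.1% of the Slc30a2 transcript on the opposite strand and rose, with 805 counts after PBS and 1942 after TNF (log2 fold change 0.94 ± 0.13 SE, edgeR adjusted p = 2.04e-05). Whether strand was used in counting is not given, and the part of Extl1 in the Slc30a2 counts was not tested.

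Slc30a1 (ENSMUSG00000037434, GRCm39 chr1:191638808-191645361) encodes ZnT1, the exporter of the plasma membrane. It was at 8.28, 10.9 and 9.6 CPM after PBS and at 6.77, 7.01, 6.8 and 8.31 CPM after TNF. TNF library 4 was level with the lowest PBS library and the others were under all PBS libraries. The log2 fold change was -0.41 ± 0.19 (SE, unadjusted 95% confidence interval -0.82 to -0.01), which did not pass the test (edgeR adjusted p = 0.075). Under total counts it was called lower as well (-0.59, edgeR adjusted p = 0.0398). Of the 3 genes whose promoters are printed above, Mt1 alone was higher after TNF, a call kept in 7 of 14 alternatives. Mt2 and Slc30a1 had values under 0 that did not pass the test. Of the other genes with MRE cores, Slc30a4 was higher, Slc30a5 was lower and Slc30a2 was not called. A link between cores and change was not tested.

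Levels can be compared between genes only per length, here as CPM per kb of the canonical transcript. After PBS, Slc30a2 had the highest level of the 10 genes, 37.7 ± 4.45 CPM per kb (SD, n = 3), apart from all others. Then came Slc39a14 (22.1 CPM per kb), Mt1 (19 CPM per kb), Slc30a4 and Slc30a5 (both 14.5 CPM per kb), Slc30a7 (13.5 CPM per kb) and Slc39a4 (12.7 CPM per kb), of which each overlapped the next. Slc39a7 (6.49 CPM per kb) was apart from its neighbours, and Mt2 (2.06 CPM per kb) and Slc30a1 (1.82 CPM per kb) overlapped at the low end.

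After TNF, Slc39a4 held the top place at 70.4 ± 5.55 CPM per kb (SD, n = 4), having been at rank 7 after PBS, and its range did not overlap that of the next gene. Slc30a2 (33.9 CPM per kb), Slc30a4 (30.1 CPM per kb), Mt1 (29.2 CPM per kb) and Slc30a7 (22.2 CPM per kb) followed, each overlapping the next. Slc39a14 (18 CPM per kb) stood apart under them, then Slc39a7 (9.68 CPM per kb) and Slc30a5 (7.37 CPM per kb) overlapped, and Slc30a1 (1.37 CPM per kb) and Mt2 (0.79 CPM per kb) were lowest. The ranks of genes that share exons depend on the length used. Reads were not counted separately over shared and unshared bases. With the whole CPM of a gene divided by its unshared length, which assumes that shared bases gave no counts, Slc39a7 stood at 46.3 CPM per kb after PBS and 69.1 CPM per kb after TNF, Slc30a2 at 68.6 and 61.7 CPM per kb, Slc30a7 at 25.2 and 41.5 CPM per kb, and Mt2 at 9.22 and 3.54 CPM per kb.

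**Figure D3:**
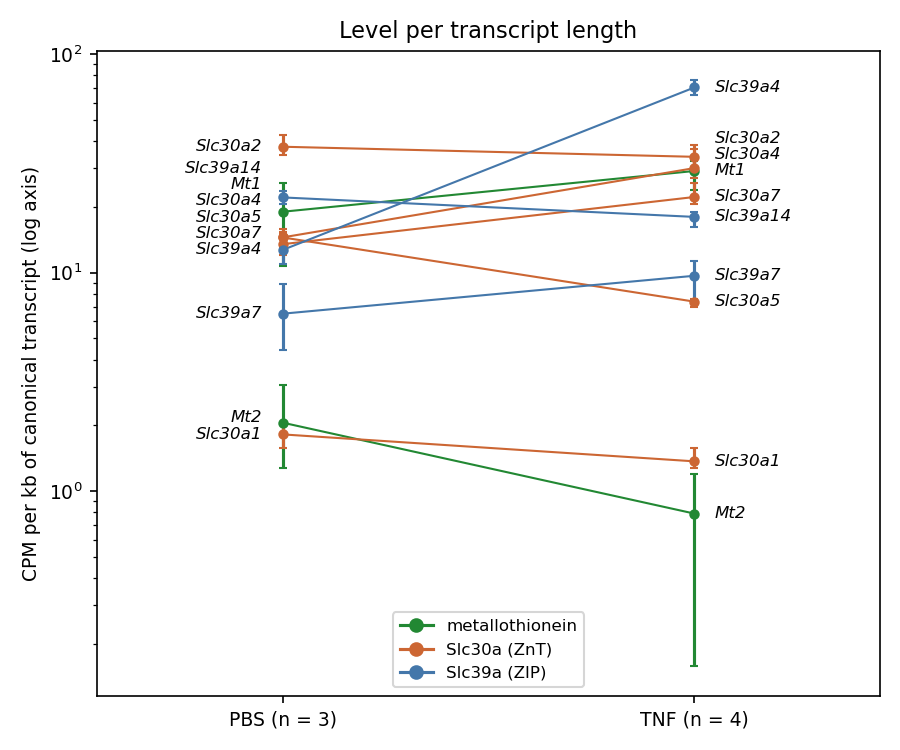
Level of the 10 zinc genes in CPM per kb of canonical transcript (log axis), as group means after PBS (n = 3) and after TNF (n = 4), with bars from the lowest to the highest library and a line joining the means of each gene. Slc39a4 goes from 12.7 to 70.4 CPM per kb and crosses all genes above it, while Slc30a5 goes from 14.5 to 7.37 CPM per kb.

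The other genes of zinc handling were 19 in number: all remaining ZnT, ZIP and metallothionein genes and Mtf1. Of these 14 could be tested, and 3 were higher and 6 lower, with a median log2 fold change of -0.39 and a range from -3.93 to 1.85. Their groups did not overlap for 10 of the 14, beside 60.7% of all tested genes. With the 10 genes above, the ZnT family had 7 tested genes, 2 higher and 2 lower, and the ZIP family had 13 tested genes, 5 higher and 6 lower. These counts stand beside 59.6% of all tested genes called, 29.5% as higher and 30.1% as lower, and no list was tested against other genes.

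The 3 rises were those of Slc39a1, Slc39a10 and Slc39a6. Slc39a1 (ZIP1) went from 131, 107 and 105 CPM after PBS to 357, 448, 378 and 461 CPM after TNF, a rise of 1.85 ± 0.13 (SE) on the log2 scale (edgeR adjusted p = 6.22e-08). Slc39a10 (ZIP10) went from 82, 50.7 and 53.6 CPM to 174, 204, 208 and 228 CPM, 1.71 on the log2 scale (edgeR adjusted p = 1.7e-06). Slc39a6 (ZIP6) had a PBS mean of 10.5 ± 2.12 CPM (SD, n = 3) and a TNF mean of 24.4 ± 1.9 CPM (SD, n = 4), a difference of 1.22 on the log2 scale (edgeR adjusted p = 1.84e-05). In each of these, all TNF libraries were above all PBS libraries, as for Slc39a4.

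The largest fall among the 24 tested zinc genes was that of Slc39a5, which encodes ZIP5, an importer of the basolateral membrane of enterocytes and of pancreatic acinar cells. It was at 21.8, 20.4 and 27.1 CPM after PBS and at 2.52, 0.53, 1.34 and 1.64 CPM after TNF, 15.2-fold lower (log2 fold change -3.93 ± 0.32 SE, edgeR adjusted p = 4.26e-07). This gene fell beside the enterocyte markers, whose median log2 fold change was -3.85, and the part of that in its fall was not tested. Slc39a2 had 55 counts after PBS and 12 after TNF (log2 fold change -2.48, edgeR adjusted p = 0.00395), but it passed the filter on low counts only through the PBS libraries (13, 23 and 19 counts against 3, 3, 5 and 1), so that its call is no independent support for a fall. Slc39a13, which encodes the ZIP13 transporter of the secretory pathway, had a PBS mean of 19.4 ± 0.334 CPM (SD, n = 3) and a TNF mean of 11.2 ± 0.642 CPM (SD, n = 4), a difference of -0.80 on the log2 scale (edgeR adjusted p = 0.000188). The other 3 falls were smaller, from -0.61 to -0.48. Of the 5 genes that could not be tested, Slc30a8, Slc39a12 and Mt4 had 0 counts, Slc30a3 had 1, and Slc30a10 had 10, of which 9 were in PBS library 2.

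The calls of Slc30a4, Slc30a5, Slc30a7 and Slc39a4 held under all 14 other ways of scaling, filtering, testing or leaving out a library that were run. The log2 fold change of Slc30a4 ran from 0.88 to 1.13 over these, that of Slc30a5 from -1.13 to -0.92, that of Slc30a7 from 0.56 to 0.81 and that of Slc39a4 from 2.31 to 2.53. Mt1 and Slc39a7 kept their direction in all 14 and their call in 7, and Slc39a14 kept its call in 11.

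**Figure D4:**
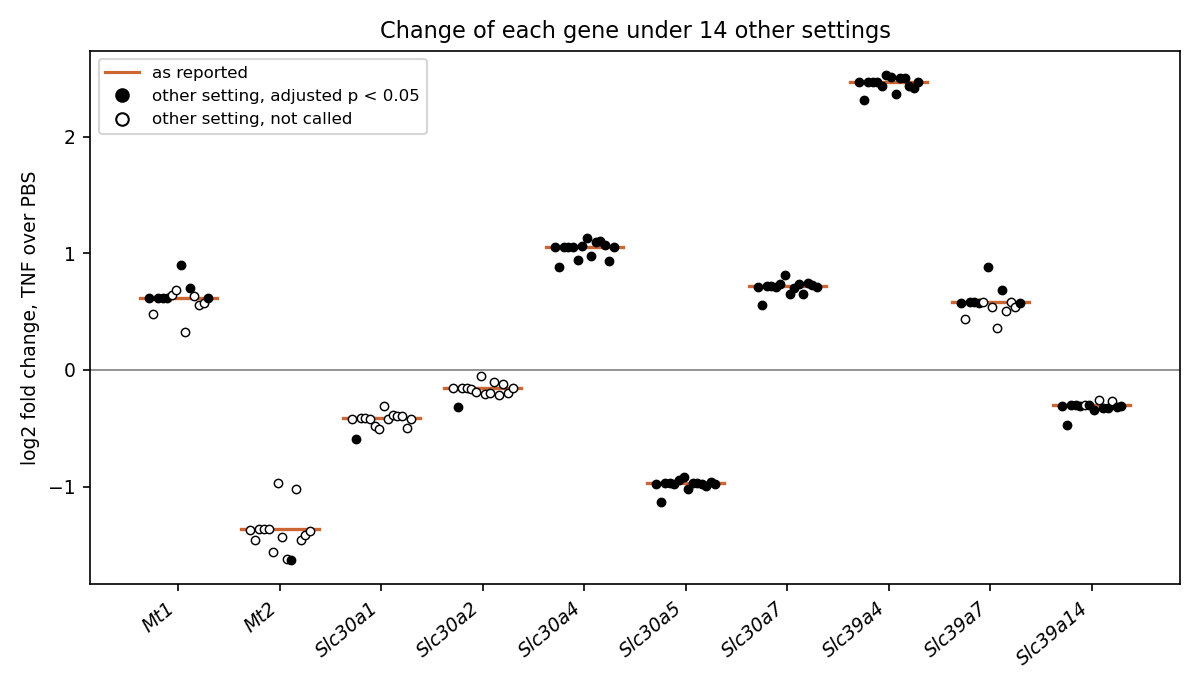
Log2 fold change (TNF against PBS) of each of the 10 zinc genes as reported (line) and under the 14 alternatives (points, filled where the adjusted p was under 0.05). Slc39a4, Slc30a4, Slc30a7 and Slc30a5 are filled in each, and Mt1 and Slc39a7 in 7 of the 14.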

How the data were processed

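The authors deposited raw counts, whole numbers of reads per gene, with 1 column for each of 7 libraries. Per the submitters' processing notes, FastQC, Trimmomatic 0.39, STAR 2.7.10a and DESeq2 were used and the builds mm10 and mm39 are named. For the counting program, the annotation and strand, the entry is: not given in the sources used here. Symbols and coordinates came from GENCODE M39 (GRCm39) for 54749 identifiers (98.8%), which may differ from the annotation used for counting.

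TNF was compared with PBS in R 4.3.3 with edgeR 4.0.16 (robust quasi-likelihood fit and F test, two-sided, no covariates) on TMM-scaled counts, after filterByExpr left 14329 genes, with Benjamini-Hochberg adjustment over all of them. The script was tested on simulated data in which few genes changed, which does not test the scaling where many genes change. The SE was derived as the absolute log2 fold change divided by the square root of F. Confidence intervals of fold changes were built from it and are not adjusted for the number of genes. Transcript lengths are those of the canonical transcript. No pair of libraries in a group was closer than sampling noise allows, and p-values measure the spread between these mice. No batch was given, so none could be examined.

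Alternative fits used DESeq2 1.42.0 size factors, total counts only, TMM without alpha-defensins and Lyz1, the DESeq2 test, no filter, a filter of 1 CPM in 3 libraries, a replicate block, and leaving out each library. The 10 genes and the lists were chosen with earlier results of these data known. All 10 were named, and of the other 19 zinc genes Mtf1 and the 3 largest rises and falls in log2 fold change among those called. Slc30a6 was named after its values were seen. Outside this rule, Slc39a8 and Mt3 are named for their values under the alternatives, and the untested genes for their counts. The level of 1 leukocyte marker is not reported here.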

Additional observations from a re-analysis of the deposited data

Results flagged for a closer look

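In the TNF group, 1 library stood apart from the other 3 for 3 of the 24 tested zinc genes. The measure was the gap of the highest or lowest library to its neighbour, divided by the range of the group (Dixon's ratio, whose limit passes by chance in about 1 of 20 groups), and 3 PBS libraries are too few for it. For Slc30a1 TNF library 4 was the highest at 8.31 CPM, with a ratio of 0.843. For Slc30a4 it was again TNF library 4, at 213 CPM against 156 to 165 CPM, with a ratio of 0.844. For Slc30a7 it was TNF library 2, at 232 CPM against 186 to 192 CPM, with a ratio of 0.869. Without the library in question, Slc30a4 and Slc30a7 were still called higher. Slc30a1 was still not called, at -0.50 (edgeR adjusted p = 0.0521) beside -0.41 with all libraries (edgeR adjusted p = 0.075).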

How the results depend on the processing

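Of the 10 genes, 7 were called, 5 higher and 2 lower. Under total counts alone, the median log2 fold change of all genes was -0.163, and the calls were 3 higher and 4 lower, beside 3142 higher and 4614 lower among all 14329 tested genes: Mt1 (0.48) and Slc39a7 (0.44) lost their calls, and Slc30a1 (-0.59) and Slc30a2 (-0.32) gained them. The replicate block gave 4 calls, 3 higher and 1 lower, without Mt1 (0.65), Slc39a7 (0.58) and Slc39a14 (-0.30). Among all 14329 tested genes the block gave 7131 calls, 3553 higher and 3578 lower, beside 8543 calls as reported. The replicate numbers are not known to pair mice: same-numbered libraries had correlations of -0.299, -0.031 and -0.174, TNF library 4 has no partner, and no PBS library correlated best with its own number. Leaving out 1 library gave from 4 to 8 calls among the 10 genes, from 3 to 5 higher and from 1 to 3 lower. The lowest numbers came without PBS library 3 or TNF library 3, and 3 higher also without TNF library 2 or 4. Calls among all tested genes ran from 7663 (without PBS library 2) to 8625 (without TNF library 1) over these fits. Among the other zinc genes 9 to 11 were called in each of the 14 alternatives. The fewest calls among all genes were 7131 of 14329 under the block, and the most were 9080 of 24572 with no filter. Slc39a2 could not be tested under the filter of 1 CPM, Slc30a6 gained a call in 4 alternatives and Mt3 in 1 (-1.31, without PBS library 3). Mtf1, which was not called in any, changed sign to -0.12 under total counts and -0.019 under the block, and ranged from -0.067 to 0.11 with 1 library left out. Slc39a8, not called in any, was at -0.135, at -0.300 under total counts, and with 1 library left out ranged from -0.291 (without TNF library 4) to 0.04 (without PBS library 1). Depth limits Mt2 (82 and 41 counts) and Slc39a2 (55 and 12 counts). The causes of these shifts were not tested.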
